A study of Oryctolagus cuniculus with 9 samples.

Results

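The genes described here are MYC and the factors that share or compete for its dimerisation partner, in HA-VSMC cells exposed to β-estradiol. Members were taken by gene symbol (MYC, MYCN, MYCL, MAX, MXD1, MXD3, MXD4, MXI1, MNT and MLX), with no threshold on their values. The choice was made with earlier results of these data known. Of these 10 symbols, 9 were among the 19291 genes of the tables, and all 9 passed the filter on low counts. MYCN is not analysed here.

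MYC and its relatives MYCN and MYCL are helix-loop-helix leucine zipper proteins that bind DNA only as a pair with MAX, and such pairs activate genes of growth, ribosome production and the cell cycle. MXD1, MXI1, MXD3, MXD4 and MNT compete for the same MAX and recruit repressors to the same E-box motifs, so the balance between MYC and these partners is often read as a switch between growth and rest. MLX is a MAX relative that pairs with the glucose-sensing factors of the Mondo family and also with some of the repressing partners. In smooth muscle cells MYC is known as a gene switched on within the first hours of a growth stimulus.

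Transcript abundance was measured by RNA sequencing in 9 libraries of a cell line named HA-VSMC, which the labels give as rabbit (Oryctolagus cuniculus), a species not checked here. The groups were controls, 50 nM β-estradiol and 250 nM β-estradiol, with 3 libraries each and 48 h of exposure before harvest. The estradiol was dissolved in DMSO, the labels do not say whether controls received DMSO, and the treatment text names the 250 nM concentration alone. The control samples are titled as controls but also carry estrogen as their treatment tag, with WT as the concentration, so what the controls received is known from their titles only and bears on every comparison with them. The series title places the work in adenomyosis, with STRA6 and Wnt/β-catenin signalling.

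Each library held between 54718407 and 72274464 counted units, and low values stepped by about 4 units, so that a library stands for about 13679602 to 18068616 fragments. Of the smooth muscle marker genes, 6 of the 10 listed reached 1 FPKM (fragments per kilobase, scaled to library size), with ACTA2 at 1172 to 1375 FPKM, while MYH11 stood at 4.20 to 6.40 FPKM, MYOCD at 0.304 to 0.660 FPKM, and DES was listed at 0. Fibroblast markers, of which 7 of 8 reached 1 FPKM in every group, summed to between 5883 and 6043 FPKM at 50 nM. The sum was 5966 to 6202 FPKM at 250 nM, against 5237 to 5714 FPKM in controls, so both treated groups lay above the controls. Most of each sum was COL1A1 (1891 to 2230 FPKM over all libraries) and COL1A2 (2655 to 3122 FPKM). At 50 nM against controls only these 2 of the 8 passed by edgeR, and 5 of the 8 were positive and 3 negative. At 250 nM 7 were positive and 1 negative, with COL1A1 alone past the threshold. The part of these markers in the results below was not tested, and in bulk RNA a different share of cells cannot be told apart from a different RNA content per cell. Endothelial markers summed to at most 2.18 FPKM and leukocyte markers to at most 0.369 FPKM.

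MYC was lower at 50 nM than in controls and higher at 250 nM than at 50 nM, and 250 nM did not pass the test against controls. The deposited MYC level was 53.7, 50.6 and 53.5 FPKM in the 3 libraries at 50 nM, against 66.1, 74.6 and 65.8 FPKM in the 3 controls. The 50 nM libraries all lay below every control library. At 250 nM the level was 68.5, 75.4 and 71.2 FPKM, which overlapped the controls and lay above every 50 nM library. The FPKM were not rescaled here, and on their scale the median gene differed from controls by -0.05 at 50 nM and by -0.04 at 250 nM (log2). Along the dose series the mean was 68.8 ± 5.01 FPKM in controls, 52.6 ± 1.73 FPKM at 50 nM and 71.7 ± 3.47 FPKM at 250 nM (SD, n = 3 each).

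On counts, tested with edgeR's quasi-likelihood test across 12324 genes with Benjamini-Hochberg adjustment, MYC was 1.26-fold lower at 50 nM than in controls, a log2 fold change of -0.34 ± 0.07 (SE) with an adjusted p of 0.0108. The same test gave 0.10 ± 0.07 for 250 nM against controls, with an adjusted p of 0.766 and a 95% interval of -0.04 to 0.24. MYC was 1.35-fold higher at 250 nM than at 50 nM, a log2 fold change of 0.44 ± 0.07 with an adjusted p of 0.00567. The 2 calls share the 50 nM libraries. MYC ranked 160th by p among the 12324 genes at 50 nM against controls and 19th at 250 nM against 50 nM. Its change was smaller than the median size among called genes, which was 0.41 at 50 nM against controls and 0.53 between the concentrations (log2). Without replicate 2 of the 250 nM libraries, the largest MYC value of that group, the change between the concentrations was 0.39 with an adjusted p of 0.0626.

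Few genes of the whole table passed in any comparison. At 50 nM against controls 1 of the 9 network genes passed an adjusted p of 0.05, MYC itself, which was lower, while 3.25% of all tested genes passed, made up of 1.55% higher and 1.70% lower. At 250 nM against controls none of the 9 passed by edgeR, 1 had an unadjusted p under 0.05 and DESeq2 and limma-voom called 0, where 0.308% of all genes passed, 0.203% higher and 0.105% lower. Between the concentrations 1 of 9 passed, again MYC, which was higher at 250 nM, where 0.325% of all genes passed, 0.187% higher and 0.138% lower. At 50 nM against controls 5 of the 9 had an unadjusted p under 0.05 by edgeR, beside 1924 of all 12324 genes. Between the concentrations 3 of the 9 did, beside 700 of all genes, and at 250 nM against controls 1069 of all genes did. The median log2 fold change of the 9 genes was -0.14 at 50 nM against controls, where the median over all genes was -0.002.

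**Figure D1:**
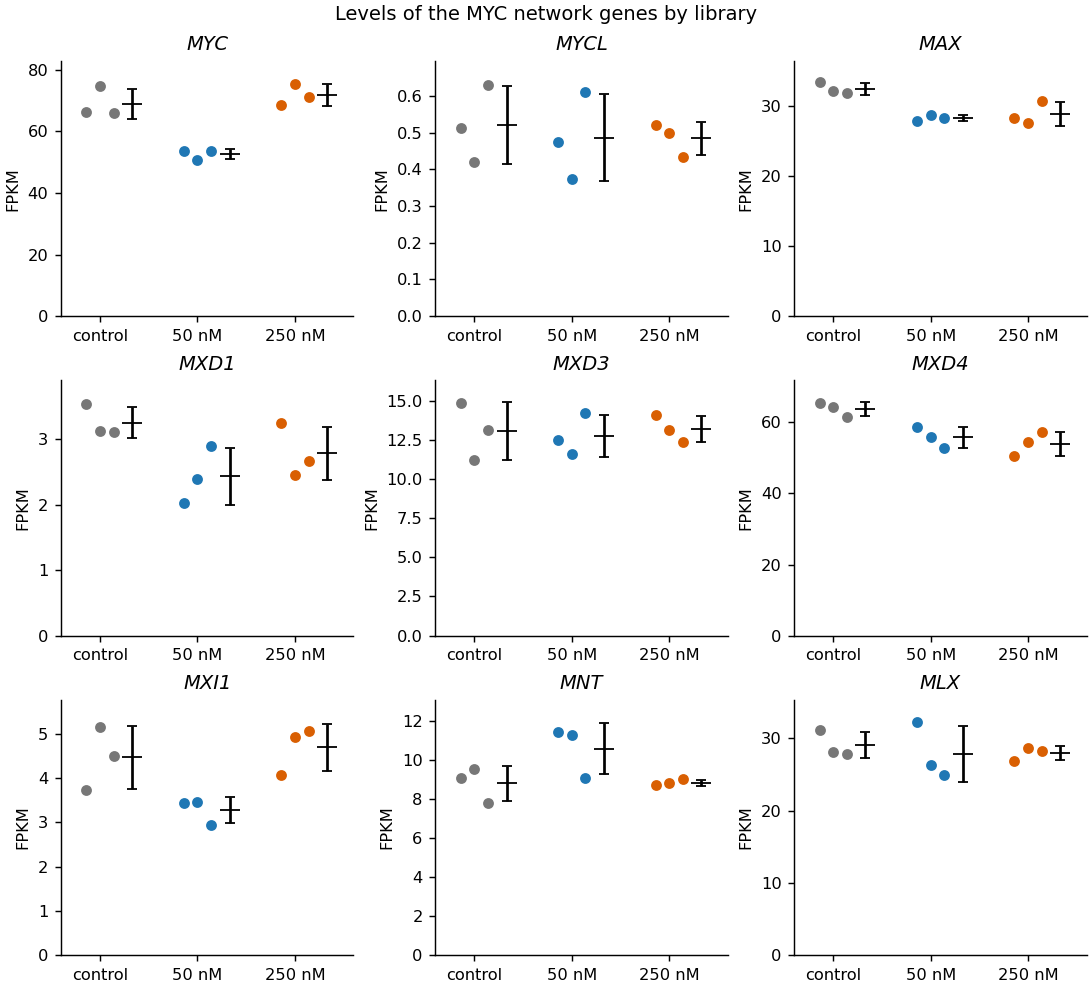
Deposited level in FPKM (vertical axes, each from 0) of the 9 network genes in each library of the control, 50 nM and 250 nM groups. Points are libraries, and the bar beside them is the mean with its SD (n = 3). MYC at 50 nM (50.6 to 53.7 FPKM) lies below all other MYC libraries, and MXI1 at 50 nM is likewise the lowest group.

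MYCL, the third MYC-type factor, was near the limit of detection. It was listed at 0.474, 0.374 and 0.611 FPKM at 50 nM and at 0.521, 0.500 and 0.434 FPKM at 250 nM, against 0.512, 0.420 and 0.630 FPKM in controls. All 3 groups overlapped, and each value rests on about 23 to 39 fragments. Its log2 fold change was -0.05 ± 0.23 at 50 nM against controls, with an edgeR adjusted p of 0.958, so that only a large change would have been detectable at this depth.

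MAX, the obligate partner of MYC and a partner of its antagonists, had 27.8, 28.6 and 28.2 FPKM at 50 nM, against 33.3, 32.0 and 31.7 FPKM in controls. At 250 nM it had 28.2, 27.4 and 30.7 FPKM. Libraries of either concentration lay below every control, without overlap, on this scale and in scaled counts. The differences were small, -0.15 ± 0.06 (log2) at 50 nM with an edgeR adjusted p of 0.244 and -0.13 ± 0.06 at 250 nM with an adjusted p of 0.576, so neither passed. MAX at 250 nM and at 50 nM differed by 0.02 (log2) with an adjusted p of 1.

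Among the repressing partners, MXD4 was by far the most abundant, at a level close to that of MYC. It had 58.6, 55.9 and 52.8 FPKM at 50 nM and 50.5, 54.4 and 57.3 FPKM at 250 nM, against 65.4, 64.3 and 61.6 FPKM in controls. No treated library reached the lowest control. The log2 fold change was -0.14 ± 0.07 at 50 nM (edgeR adjusted p of 0.315) and -0.20 ± 0.07 at 250 nM (adjusted p of 0.347). Its unadjusted p at 250 nM, 0.0087 in the same test, was the lowest of the network there, and the 95% interval ran from -0.34 to -0.06 before any adjustment for the number of genes.

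MXI1, another MXD-type repressor, was the member whose level was most like that of MYC over the 9 libraries (r = 0.894). It stood at 3.44, 3.46 and 2.94 FPKM at 50 nM, against 3.75, 5.16 and 4.51 FPKM in controls, with no overlap. At 250 nM it had 4.09, 4.94 and 5.08 FPKM, inside the control range and above every 50 nM library. Its log2 fold change was -0.39 ± 0.17 at 50 nM against controls (edgeR adjusted p of 0.274) and 0.50 ± 0.17 at 250 nM against 50 nM (adjusted p of 0.536). These are larger in size than the MYC changes, but each MXI1 value rests on about 30 to 69 fragments, and neither passed. RefSeq's rabbit annotation (mOryCun1.1) places LOC103351424 across the MXI1 locus, and a count without strand could not separate them.

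MNT, a broadly expressed MAX-binding repressor, was the member with the largest positive log2 fold change at 50 nM. It had 11.5, 11.3 and 9.08 FPKM at 50 nM, against 9.08, 9.54 and 7.82 FPKM in controls, and replicate 3 at 50 nM lay inside the control range. At 250 nM its libraries were close together, at 8.72, 8.83 and 9.02 FPKM. The log2 fold change was 0.32 ± 0.10 at 50 nM against controls, with an edgeR adjusted p of 0.114, and -0.27 ± 0.10 at 250 nM against 50 nM, with an adjusted p of 0.632. Without replicate 3 at 50 nM the first of these was 0.43 with an adjusted p of 0.0181, so that single library decides whether MNT is called.

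MXD1 had 2.03, 2.39 and 2.89 FPKM at 50 nM, against 3.53, 3.12 and 3.11 FPKM in controls, which did not overlap, and 3.24, 2.46 and 2.66 FPKM at 250 nM, which did. This repressor, usually tied to differentiation, differed by -0.36 ± 0.18 (log2) at 50 nM with an edgeR adjusted p of 0.351, on about 28 to 54 fragments a library. MXD3 had 12.5, 11.6 and 14.2 FPKM at 50 nM and 14.1, 13.1 and 12.4 FPKM at 250 nM, against 14.9, 11.2 and 13.1 FPKM in controls. Its log2 fold change of 0.02 ± 0.09 at 50 nM came with an adjusted p of 0.96. All groups of MXD3 overlapped, on about 765 to 1050 fragments a library.

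MLX, which pairs with the Mondo factors, had 32.3, 26.4 and 24.9 FPKM at 50 nM and 26.9, 28.7 and 28.3 FPKM at 250 nM, against 31.1, 28.1 and 27.9 FPKM in controls. The groups overlapped throughout, and its log2 fold change was -0.01 ± 0.09 at 50 nM and -0.02 at 250 nM, with edgeR adjusted p of 0.981 and 0.986. RefSeq places PSMC3IP across the MLX locus and LOC103347661 across that of MXD1, so these counts may hold reads of the overlapping genes. Outside the member list, MLXIP (MondoA), a partner of MLX, gave -0.11 ± 0.09 (log2) at 50 nM, adjusted p of 0.668. TXNIP, a target of MondoA, gave 0.29 ± 0.09 with an adjusted p of 0.0927, and MGA, a large MAX partner, gave -0.13 ± 0.08 with an adjusted p of 0.498. By edgeR none of the 4 tested genes around MLX and MGA passed at 50 nM, 1 had an unadjusted p under 0.05, DESeq2 called 1 and limma-voom 0. Over all 12324 tested genes 3.25% passed by edgeR, 1924 had such a p, DESeq2 called 699 and limma-voom 376. At 250 nM none of the 4 passed by edgeR or DESeq2 and 0 had an unadjusted p under 0.05, with MGA at -0.10 (adjusted p of 0.821) and TXNIP at -0.10 (0.853). Among all tested genes 0.308% passed by edgeR there, DESeq2 called 139 and 1069 had such a p.

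**Figure D2:**
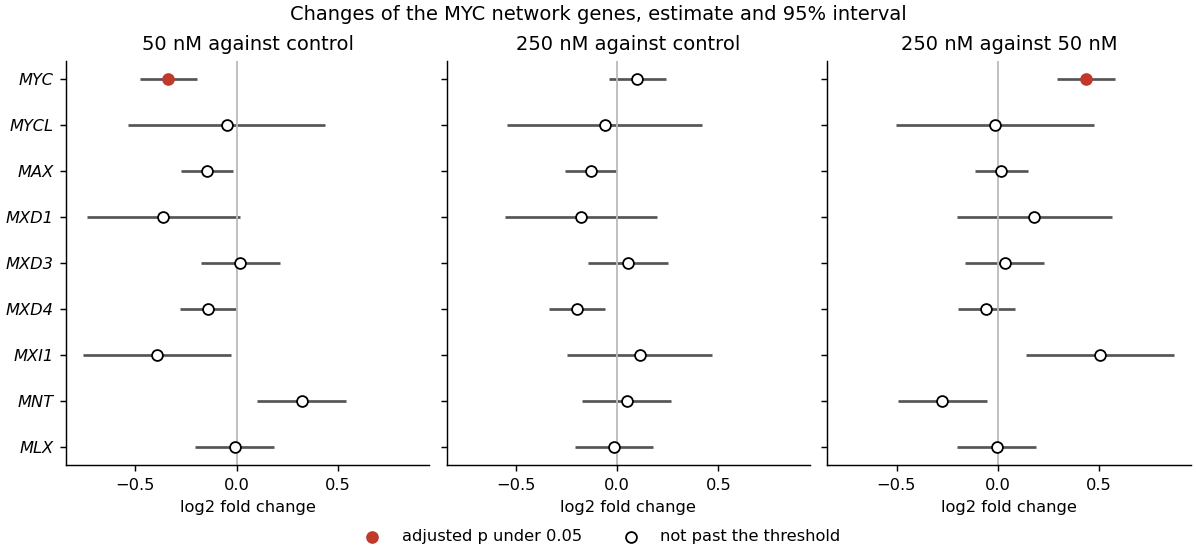
Log2 fold change (horizontal axes) of each network gene in the 3 comparisons, from edgeR on the counts, with lines for the 95% interval before adjustment. Filled red points have an adjusted p under 0.05, and they are MYC at 50 nM against control (-0.34) and MYC at 250 nM against 50 nM (0.44). MXI1 and MNT have wide intervals on opposite sides of 0 at 50 nM.

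Libraries that did not overlap between groups were common in the table and gave the wider frame. At 50 nM against controls 5 of the 9 genes did not overlap in scaled counts (MYC, MAX, MXD1, MXD4 and MXI1), all lower at 50 nM, where 19.0% of all tested genes did not overlap. For 250 nM against controls these were 2 genes, MAX and MXD4, where 15.5% of all genes did not overlap. Between the concentrations there were 3, MYC and MXI1, which were higher at 250 nM, and MNT, which was lower, beside 11.5% of all genes.

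Set in order of level, per length, the network in control cells ran MYC at 68.8 FPKM, MXD4 at 63.8, MAX at 32.4, MLX at 29.1, MXD3 at 13.1, MNT at 8.81, MXI1 at 4.47, MXD1 at 3.25 and MYCL at 0.521. No pair of neighbours in that order overlapped between its libraries. At 50 nM MXD4, with a mean of 55.8 FPKM, stood above MYC at 52.6 FPKM, but the libraries of these neighbours overlapped. At 250 nM MYC at 71.7 FPKM was again apart from MXD4 at 54.1 FPKM. MAX and MLX overlapped at both concentrations. The length behind each level is the authors' own, and MXD3 had the most counted units per FPKM of the 9 genes while MXI1 had the fewest, so that rank between genes is less certain than change within one.

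The ratio of MYC to the summed level of its repressing competitors set the 3 groups apart, which its ratios to MAX and to MXD4 alone did not. MYC divided by the summed level of MXD1, MXD3, MXD4, MXI1 and MNT was 0.610, 0.598 and 0.653 at 50 nM, against 0.684, 0.799 and 0.729 in controls. At 250 nM it was 0.849, 0.900 and 0.824, above every control library. The mean ratio was 0.738 ± 0.058 in controls, 0.620 ± 0.029 at 50 nM and 0.858 ± 0.039 at 250 nM (SD, n = 3 each), and no group overlapped another. The ratio was built from the members and was given no test.

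The terms of the ratio differed between the concentrations. At 50 nM MYC averaged 52.6 FPKM and the summed partners 84.9 FPKM, against 68.8 and 93.4 FPKM in controls, so both were lower and MYC more so. At 250 nM MYC averaged 71.7 FPKM and the partners 83.6 FPKM, so MYC stood close to its control mean and the partners, most of them MXD4, stood below theirs. MYC relative to MAX was 1.87 ± 0.09 at 50 nM and 2.50 ± 0.22 at 250 nM, against 2.13 ± 0.18 in controls. None of the partner genes passed the test on its own.

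**Figure D3:**
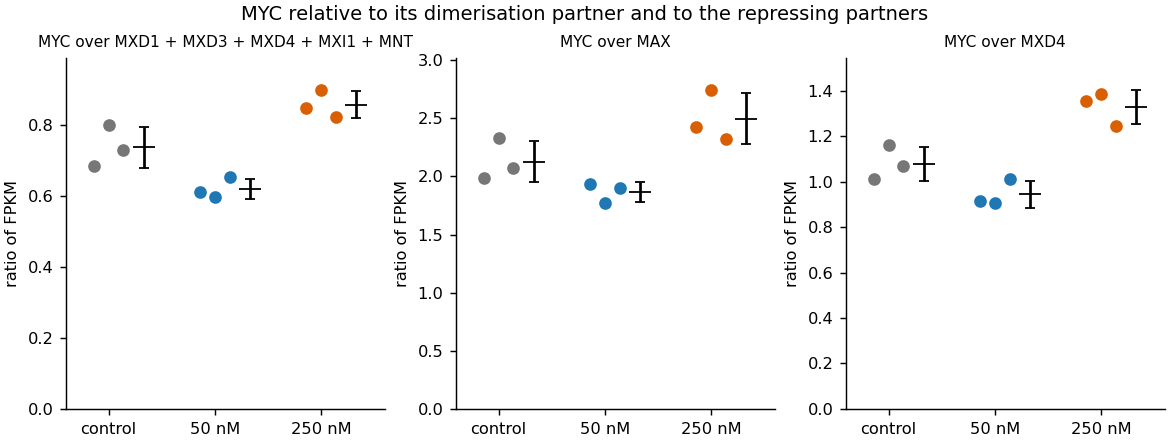
Ratio of the MYC level to the summed level of its repressing partners, to MAX and to MXD4 (vertical axes, ratio of FPKM, each from 0), in each library of the control, 50 nM and 250 nM groups. Points are libraries and bars are the mean with its SD (n = 3). In the left panel the 50 nM libraries (0.598 to 0.653) lie below the controls and the 250 nM libraries (0.824 to 0.900) above them. In the ratio to MAX the 250 nM libraries overlap the controls, and in the ratio to MXD4 the 50 nM libraries do.

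Genes whose level followed that of MYC over the 9 libraries were picked by correlation of log2 of scaled counts (CPM) among 7594 genes of at least 5 CPM. This is a description, since the libraries share 3 groups and each gene was chosen for its likeness. SIMC1 was most like MYC with r = 0.960, then FAM222A at 0.926, TFDP1, the partner of E2F factors, at 0.907, IRS1, an insulin receptor substrate, at 0.897 and the ubiquitin ligase TRIM27 at 0.895. Most unlike were ZFP36L2, an RNA-binding protein that promotes mRNA decay, at -0.956, the Pumilio protein PUM2 at -0.940, the telomere protein ACD at -0.929, the kinase NUAK2 at -0.917 and the golgin GOLGA5 at -0.917. Among all compared genes 3 reached 0.9 and 5 fell to -0.9 or below.

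Of these 10 genes, FAM222A and NUAK2 passed the test at 50 nM against controls, where 3.25% of all tested genes passed. The 10 were picked for likeness to MYC in these same libraries, so their calls are no separate support. FAM222A had 5.11, 4.76 and 4.93 CPM at 50 nM, against 7.11, 6.76 and 6.55 CPM in controls, a log2 fold change of -0.46 ± 0.11 with an edgeR adjusted p of 0.0283. NUAK2 had 127, 121 and 123 CPM at 50 nM, against 98.9, 94.1 and 86.6 CPM in controls, a change of 0.41 ± 0.06 with an adjusted p of 0.00186. The FAM222A call was lost on leaving out any of 5 libraries and in a fit of the 2 groups alone (adjusted p of up to 0.105). Within the network MXI1 had an r of 0.894 with MYC, MNT one of -0.574, MXD1 0.37 and MAX 0.27.

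**Figure D4:**
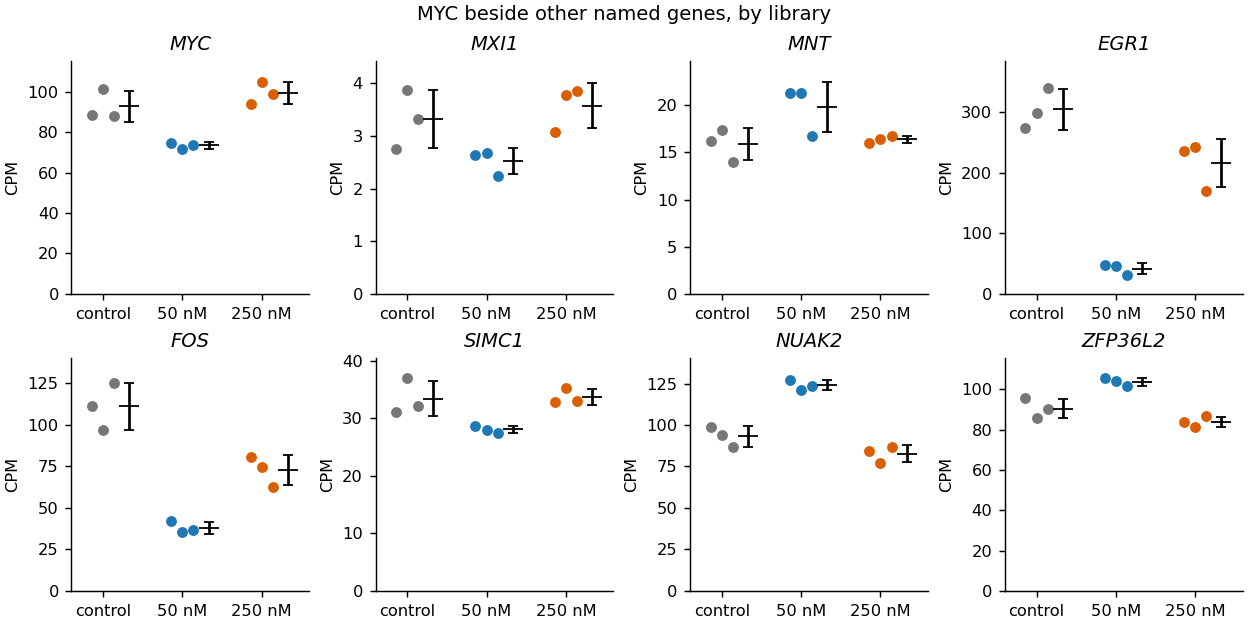
Scaled counts in CPM (vertical axes, each from 0) of MYC, MXI1, MNT, EGR1, FOS, SIMC1, NUAK2 and ZFP36L2 in each library of the control, 50 nM and 250 nM groups, with the mean and SD (n = 3) as bars. MYC, MXI1 and SIMC1 are lowest at 50 nM, EGR1 and FOS far lowest there, and MNT, NUAK2 and ZFP36L2 highest.

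Lists of genes that MYC with MAX is known to activate held few or no calls. Among all tested genes at 50 nM against controls, 3.25% passed by edgeR and 1924 of 12324 had an unadjusted p under 0.05. Of 31 tested genes of ribosome production, none passed at 50 nM, with 2 at an unadjusted p under 0.05 and 0 called by DESeq2, and their median log2 fold change was 0.004. The lowest p belonged to WDR12, a factor of large-subunit assembly, at -0.20 ± 0.07 with an edgeR adjusted p of 0.156, and to POLR1A, the largest subunit of RNA polymerase I, at -0.16 ± 0.07 with 0.276. Of 21 genes of nucleotide and polyamine synthesis and of 17 genes of translation and chaperonins, none passed at 50 nM, none had an unadjusted p under 0.05 and DESeq2 called 0 in either list. Their lowest p were those of RRM2, a ribonucleotide reductase subunit, at 0.19 ± 0.10 with an adjusted p of 0.364 (TYMS gave -0.13 with 0.439), and of EIF4EBP1, an inhibitor of cap-dependent translation, at -0.13 ± 0.09 with 0.547 (PHB2 gave -0.08 with 0.633).

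At 250 nM the same 3 lists again held no call by edgeR or DESeq2, where 0.308% of all genes passed by edgeR. Unadjusted p fell under 0.05 for 2 genes of ribosome production, for 1 of nucleotide and polyamine synthesis and for 2 of translation. Among all 12324 tested genes 1069 had such a p. Medians were -0.03, -0.05 and -0.06 (log2), beside a median of -0.005 over all genes. In the first list WDR12 gave -0.17 and WDR43, an rRNA-processing factor, -0.15, with edgeR adjusted p of 0.467 and 0.539. SHMT1, of one-carbon metabolism, gave -0.38 ± 0.16 with 0.52, and PPAT, which starts purine synthesis, -0.17 with 0.644. EIF4EBP1 gave -0.23 ± 0.09 with 0.417 and PHB2, a prohibitin, -0.14 with 0.528.

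In the list of glycolysis and other nutrient use, HK2 rose at 50 nM, where 1.55% of all tested genes were higher and 1.70% lower by edgeR. This hexokinase, which commits glucose to glycolysis, had 48.9, 47.4 and 37.7 CPM at 50 nM, against 25.3, 27.6 and 26.5 CPM in controls, a log2 fold change of 0.76 ± 0.09 with an edgeR adjusted p of 0.000216. HK2 is known as a MYC-activated gene, and here it was higher in the libraries with the lowest MYC. It is 1 of the 17 tested genes of the list, and a link between its level and that of MYC was not tested. At 250 nM against 50 nM HK2 was lower, by a log2 fold change of -0.53 ± 0.09 with an adjusted p of 0.011, a call lost on leaving out any of 4 libraries and in all 3 fits on FPKM (up to 0.186). At 250 nM against controls none of the 17 tested genes of this list passed by edgeR or DESeq2 and 2 had an unadjusted p under 0.05. These were HK2 at 0.23 (edgeR adjusted p of 0.439) and the glucose transporter SLC2A1 at 0.19 (0.465). In that comparison 0.308% of all genes passed by edgeR, DESeq2 called 139 and 1069 of 12324 had an unadjusted p under 0.05.

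Of 22 cell cycle genes, 1 rose at 50 nM and none fell, beside 1.55% higher and 1.70% lower among all tested genes. It was ID2, an inhibitor of helix-loop-helix factors, with 19.3, 14.8 and 17.7 CPM at 50 nM against 10.9, 12.1 and 11.1 CPM in controls, a log2 fold change of 0.60 ± 0.10 and an edgeR adjusted p of 0.00394. At 250 nM none passed by edgeR or DESeq2 and 3 had an unadjusted p under 0.05. Over all tested genes 0.308% passed by edgeR, DESeq2 called 139 and 1069 of 12324 had such a p. The transcription factor TFAP4 was lowest in p at -0.31 ± 0.11 (edgeR adjusted p of 0.384), with cyclin E1, CCNE1, next at -0.23 (0.404).

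Of 13 tested genes that MYC is known to repress, 2 rose and 1 fell at 50 nM. Among all tested genes 1.55% were higher and 1.70% lower there. THBS1, the matrix protein thrombospondin-1, had 2298, 2228 and 1917 CPM at 50 nM and 1860, 1940 and 1891 CPM at 250 nM, against 1438, 1535 and 1572 CPM in controls. It changed by 0.50 ± 0.06 (log2) at 50 nM and by 0.32 ± 0.06 at 250 nM, with edgeR adjusted p of 0.000325 and 0.0393, the second lost on leaving out any of 6 libraries and in all 3 fits on FPKM (adjusted p of up to 0.251). COL1A2, a collagen chain that is also one of the fibroblast markers, changed by 0.18 ± 0.04 at 50 nM with an adjusted p of 0.0159. The COL1A2 call held under 16 of 21 alternatives, and it was lost without 50 nM replicate 2 (0.0549), in a fit of the 2 groups alone, and in all 3 fits on FPKM, where the adjusted p reached 0.457. CDKN1A, the cell cycle inhibitor p21, fell to 308, 304 and 331 CPM at 50 nM, against 399, 404 and 402 CPM in controls, a log2 fold change of -0.35 ± 0.05 with an adjusted p of 0.00111.

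Among 23 tested cofactors and regulators of MYC protein turnover, 2 fell and none rose at 50 nM. The shares over all tested genes were 1.70% lower and 1.55% higher. USP28, a deubiquitinase known to stabilise MYC protein, had 18.1, 20.3 and 15.9 CPM at 50 nM, against 25.3, 27.9 and 22.4 CPM in controls, a log2 fold change of -0.48 ± 0.10 with an edgeR adjusted p of 0.0159. KDM5B, a histone demethylase, changed by -0.23 ± 0.06 with an adjusted p of 0.0422. Leaving out control replicate 2 or 50 nM replicate 1 took USP28 to an adjusted p of up to 0.0633, unfiltered FPKM took it to 0.0661, and any of 8 libraries, or a fit of the 2 groups alone, took KDM5B above 0.05, to at most 0.139. At 250 nM none of the 23 passed by edgeR or DESeq2 and 2 had an unadjusted p under 0.05. Beside these, 0.308% of all tested genes passed by edgeR, DESeq2 called 139 and 1069 of 12324 had such a p. The 2 were AURKA at -0.25 ± 0.10 (edgeR adjusted p of 0.417) and CIP2A at -0.25 ± 0.10 (0.425), both known to protect MYC-family proteins from degradation.

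MYC is itself one of the genes that growth factors induce within the first hour or so. The 17 other tested genes of that class held more calls at 50 nM than any other list here. The list was chosen with earlier results of these data known, so its lead is no separate support. At 50 nM 9 of the 17 fell and 2 rose, beside 1.70% lower and 1.55% higher among all tested genes. Their median log2 fold change was -0.36. EGR1, a zinc finger factor, had 47.8, 45.9 and 30.9 CPM at 50 nM, against 275, 299 and 341 CPM in controls, a log2 fold change of -2.87 ± 0.16 with an edgeR adjusted p of 3.93e-08. FOS, a subunit of the AP-1 factor, had 42.0, 35.2 and 36.9 CPM at 50 nM, against 111, 96.9 and 125 CPM in controls, a change of -1.55 ± 0.10 with an adjusted p of 3.61e-07. The phosphatase DUSP1 changed by -0.87 ± 0.06 and the matricellular protein CYR61 by -0.73 ± 0.05, with adjusted p of 3.61e-07 and 1.2e-06. The 2 that rose at 50 nM, named after their values were seen, were KLF10 at 0.79 ± 0.07 and EGR3 at 0.91 ± 0.20.

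At 250 nM against controls 3 of the 17 fell and 2 rose, beside 0.105% lower and 0.203% higher among all tested genes. DUSP1 changed by -0.52 ± 0.06 (edgeR adjusted p of 0.000601) and FOS by -0.61 ± 0.10 (0.0146), while EGR3 changed by 1.16 ± 0.20 (0.0182) and KLF10 by 0.40 ± 0.07 (0.0187). CYR61, also named after its value was seen, was the third to fall, at -0.30 ± 0.05 (0.0245). The calls for FOS and KLF10 were lost on leaving out any of 4 libraries and in all 3 fits on FPKM (up to 0.17 for each), and that for EGR3 on leaving out any of 6 libraries and on unfiltered FPKM (up to 0.12). Between the concentrations 8 were higher and 1 lower at 250 nM than at 50 nM, beside 0.187% and 0.138% of all tested genes. EGR1 had 236, 243 and 170 CPM at 250 nM, against 47.8, 45.9 and 30.9 CPM at 50 nM, a change of 2.38 ± 0.15 with an adjusted p of 1.4e-06. FOS differed by 0.93 ± 0.10, IER3 by 0.55 ± 0.06 and CYR61 by 0.43 ± 0.05, with FOS and CYR61 above 0.05 on unfiltered FPKM alone (0.0535 and 0.065). MYC differed by 0.44 in the same comparison.

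**Figure D5:**
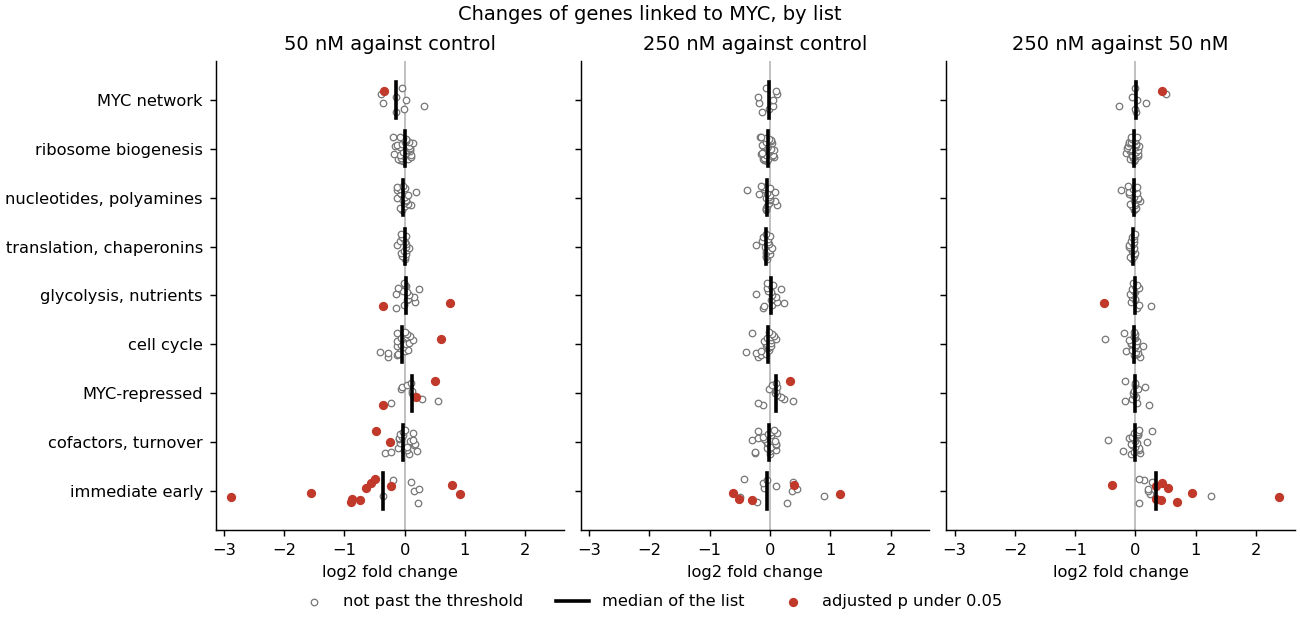
Log2 fold change (horizontal axes) of the network genes and of 8 lists of genes linked to MYC, in the 3 comparisons. Each point is a gene, red where the adjusted p is under 0.05, and the black line is the median of the list. Lists of ribosome production, nucleotides and translation lie near 0 in all panels, and the immediate early genes spread widest, with a median of -0.36 at 50 nM against control.

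MYC is a known target of Wnt/β-catenin, which the series title names. Of 8 tested Wnt targets other than MYC, none passed at 50 nM by edgeR, 4 had an unadjusted p under 0.05 and DESeq2 called 2. Among all 12324 tested genes 1924 had such a p and DESeq2 called 699. BMP4 gave -0.21 ± 0.06 (log2) with an adjusted p of 0.0698 and the adhesion receptor CD44 gave 0.18 ± 0.05 with 0.0846. At 250 nM none passed by edgeR, 2 had an unadjusted p under 0.05 and DESeq2 called 1. Over all tested genes these counts were 1069 and 139. FOSL1 had the lowest p there, at 0.44 ± 0.11 with an adjusted p of 0.13, and BMP4 gave -0.12 with 0.566.

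Between the concentrations most lists again held no call by edgeR, where 0.325% of all genes passed. There 700 of the 12324 genes had an unadjusted p under 0.05. The 31 genes of ribosome production had 1 at an unadjusted p under 0.05, and the lists of nucleotide and polyamine synthesis and of translation had 0, with 0 called by DESeq2 in all 3. The lowest p there were those of NOP58 at -0.14 (edgeR adjusted p of 0.773), MRTO4 at -0.15 (0.952), SHMT1 at -0.25, GART at -0.10, CCT3 at -0.09 and EIF4E at -0.10 (1 for each of these 4). All 17 translation and chaperonin genes had negative values, with a median of -0.04 (log2).

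Of the 23 cofactors none passed between the concentrations by edgeR or DESeq2, and 4 had an unadjusted p under 0.05, led by KDM5B at 0.19 (adjusted p of 0.414) and USP28 at 0.28 (0.583). Over all 12324 tested genes 700 had such a p there and DESeq2 called 98. In the cell cycle list ID2 gave -0.50 ± 0.10 at 250 nM against 50 nM with an edgeR adjusted p of 0.0614, DESeq2 called 1, and CDK6 gave 0.13 with 0.969. In the list of repressed genes CDKN1A gave 0.23 ± 0.05 with 0.0938, THBS1 -0.18 with 0.551, and DESeq2 called 1. TXNIP gave -0.39 ± 0.09 with 0.111, MLXIP 0.16 with 1, and DESeq2 called 1 of these genes around MLX and MGA. Of the Wnt targets CD44 gave -0.18 with 0.301 and AXIN2, a feedback inhibitor of the pathway, -0.32 with 0.536, with 2 at an unadjusted p under 0.05 and 0 called by DESeq2.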

How the data were processed

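RNA-seq was analysed for 9 HA-VSMC libraries, 3 per group. Per the submitters' processing notes the authors used Trim Galore, TopHat2 2.1.1, Cufflinks and Cuffdiff. No source used here names the genome build, the annotation or the strand used in counting. The authors deposited estimated counts per gene, already given as whole numbers, and FPKM per gene. Apart from a common factor for each library, a gene's count and FPKM kept a fixed ratio, within 0.339%. FPKM were used for levels between genes.

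Counts were tested in R 4.3.3 with edgeR 4.0.16 (TMM scaling, filterByExpr with a minimum count of 10, quasi-likelihood test) in 1 fit over all 9 libraries, with Benjamini-Hochberg adjustment over 12324 genes and a threshold of 0.05. The common biological coefficient of variation was 8.92%. Alternatives used DESeq2 1.42.0, limma 3.58.1 on FPKM and on voom weights, other scalings and filters, and each library left out. Code was tested on simulated data with 200 changed genes. In the simulated 50 nM against control comparison, 9 of 50 genes were recovered at a log2 change of 0.25 and 27 of 50 at 0.34. At 0.55 it was 48 of 50, so a gene without a call may still have changed by a small amount. No recovery is given here for the other comparisons. For members with few fragments a larger change may also go without a call. MXI1, on about 30 to 69 fragments a library, gave 0.50 ± 0.17 (log2) between the concentrations with an edgeR adjusted p of 0.536. Intervals cover 95%. Nothing says that replicates were separate cultures, so p-values may measure technical spread alone.

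The members and lists were chosen with earlier results of these data known. Every listed member was named. Of each other list, genes past the threshold were named (at most the 4 of lowest p) in that comparison, or else the 2 of lowest p. The 5 genes most like and the 5 most unlike MYC were taken by Pearson correlation. A result for 1 gene of the nutrient use list is not reported here.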

Additional observations from a re-analysis of the deposited data

Results flagged for a closer look

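The 250 nM libraries differed from the 50 nM libraries in several genes beyond the threshold of the test between the 2 concentrations (edgeR's quasi-likelihood test with Benjamini-Hochberg adjustment). Values are log2 of 250 nM over 50 nM. EGR1 was higher by 2.38 ± 0.15 (adjusted p of 1.4e-06), FOS by 0.93 ± 0.10 (0.000366), IER3 by 0.55 ± 0.06 (0.000366), MYC by 0.44 ± 0.07 (0.00567), CYR61 by 0.43 ± 0.05 (0.00101) and DUSP1 by 0.35 ± 0.06 (0.0103). HK2, at -0.53 ± 0.09 (0.011), and KLF10, at -0.39 ± 0.07 (0.0134), were lower at 250 nM. The ratio of MYC to its summed repressing partners was above the control mean in every 250 nM library and below it in every 50 nM library, 0.47 apart on the log2 scale between the means of the concentrations, and this difference was not tested.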

How the results depend on the processing

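MYC at 50 nM against controls kept its sign and passed the threshold under all 21 alternatives (-0.39 to -0.27), with its highest adjusted p, 0.05 after rounding and still under the threshold, without 50 nM replicate 2. At 250 nM against controls it passed under none (0.06 to 0.17). Between the concentrations it gave 0.44 with an adjusted p of 0.0535 by limma on log2(FPKM + 1) without a filter, where 0 members were called, and ran from 0.39 to 0.47 with each library left out. The number of members called with a library left out ran from 1 to 2 at 50 nM against controls and from 0 to 1 between the concentrations.

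Of 44 values of reversed sign, in 16 results, 0 had an adjusted p under 0.05. With 1 library left out the ranges that crossed 0 were, at 50 nM against controls, -0.127 to 0.0707 for MLX, -0.0741 to 0.117 for MXD3 and -0.236 to 0.107 for MYCL. At 250 nM against controls they were -0.00599 to 0.234 for MXI1, -0.0470 to 0.0322 for MLX, -0.0395 to 0.151 for MXD3, -0.190 to 0.0937 for MYCL, -0.0357 to 0.116 for MNT, -0.0373 to 0.0892 for SIMC1, -0.0832 to 0.0437 for TRIM27, -0.0727 to 0.0107 for ACD and -0.0216 to 0.00574 for PUM2. Between the concentrations they were -0.0861 to 0.111 for MLX, -0.0233 to 0.111 for MXD3, -0.168 to 0.173 for MYCL and -0.0316 to 0.0469 for MAX. On log2(FPKM + 1), with or without a filter, and on log2(FPKM + 0.1), MXD3 at 50 nM was -0.0265, -0.0265 and -0.0280, SIMC1 at 250 nM against controls -0.0233, -0.0233 and -0.0252, and MLX between the concentrations 0.0135, 0.0135 and 0.0141. Between the concentrations MYCL was 0.000988 on unfiltered FPKM, 0.0133 by limma-voom and 0.0100 on counts divided by 4, and MLX was 0.00373 by limma-voom. The cause was not tested.

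Same-numbered libraries did not deviate together (correlations of -0.0319 to 0.0359), so the numbers were not taken as pairs. With the replicate block MYC gave -0.33, 0.10 and 0.43 (adjusted p of 0.00817, 0.684 and 0.00436) in the 3 comparisons, MYCL 0.00957 and MLX 0.00239 between the concentrations, and the same number of members was called.

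DESeq2 called 370 genes higher and 329 lower at 50 nM against controls, 77 and 62 at 250 nM against controls, and 47 and 51 between the concentrations, where edgeR called 191 and 210, 25 and 13, and 23 and 17. On log2(FPKM + 1) the split at 50 nM was 98 higher and 292 lower. Of 630 counts of called list members under alternatives, 564 stayed within 1.5 times and 66 did not. The stricter filter left MYCL, MXD1 and MXI1 without a value, and the FPKM filter MYCL. Depth limits MYCL, MXD1 and MXI1 most. No count of reads is given beyond the deposited units, so precision in fragments is approximate.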
